A study of Homo sapiens with 2 samples.

Results

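Transcripts of the proteasome were measured in HARA-B4, a subline of HARA that spreads strongly to bone, and in HARA, the parental human squamous cell lung cancer line. Each line was measured on 1 Affymetrix array, and no genetic change or treatment is named for either line. Both were grown as cultures in the same RPMI medium with serum and antibiotics. The labels do not say how HARA-B4 was selected, so the comparison is between 1 subline and its parent. The members were all probe sets whose single gene symbol in the platform annotation begins with PSMA, PSMB, PSMC, PSMD, PSME, PSMF or PSMG followed by digits, with antisense transcripts left out. This gave 81 of 54675 probe sets, which stand for 42 of 19735 named genes. PSMB8, PSMB9 and PSMB10 were set against the other 39. Of the 42 genes, 41 were above background on both arrays, and 1, PSMA8, was above it on neither. All probe sets of PSMA6 and PSME2 carry a second gene symbol, and these genes are not analysed here, nor are PSMB11, PSMC5, PSMD7 and PSMD13.

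The proteasome is the protease that degrades ubiquitin-tagged proteins. Its barrel-shaped core is built of alpha subunits, which gate the entrance, and beta subunits, of which PSMB5, PSMB6 and PSMB7 carry the cutting sites. A regulatory particle of ATPases (PSMC) and non-ATPase subunits (PSMD) binds, unfolds and feeds in the substrate. Under interferon the catalytic subunits are replaced in new particles by PSMB8, PSMB9 and PSMB10, which gives the immunoproteasome and changes the peptides offered to MHC class I. Leukocytes use these inducible subunits constitutively, and epithelial cells usually hold less of them.

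Values are probe set signals on a linear scale, and differences are log2 of HARA-B4 over HARA. A gene with several probe sets is represented by the brightest of them, by mean log2 signal over both arrays. Background was a signal of 27.1, the 95th percentile of 165 probe sets of olfactory, taste and vomeronasal receptors. The trimmed mean signal was 115.9 in HARA-B4 and 115.6 in HARA. With 1 array per line (n = 1) there is no replicate error and no test, and precision is limited by the number of arrays. Probe sets of the same gene, a technical repeat, had a within-gene SD of the log2 difference of 0.30 over 4830 genes and 0.19 over 17 members. The squamous markers KRT5, KRT14, DSG3, SOX2 and PKP1 were above background on both arrays, with signals from 543 to 7345 in HARA-B4 and from 191 to 4723 in HARA. They differed among themselves: PKP1 had 672 in HARA-B4 and 191 in HARA (1.82), KRT14 differed by 0.90, SOX2 by 0.69, KRT5 by -0.07 and DSG3 by -0.50, so part of this list was higher in HARA-B4 like PSMB8 and PSMB9, and its part in their values was not tested. In bulk cultures, a change in the share of cells using a gene and a change in its RNA per cell cannot be told apart.

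The reference promoters of the inducible subunits are shown first, because PSMB8 and PSMB9 gave the highest differences of the family and PSMB10 the lowest but one. Each window runs from 250 bases before to 50 after the RefSeq start (GRCh38.p14) and reads 5′ to 3′ along the gene. Capitals mark matches, on either strand, to the interferon-stimulated response element (ISRE) core GAAANNGAAA, to the STAT site (GAS) TTCNNNGAA, to the antioxidant response element (ARE) core TGACNNNGC, bound by the NFE2L factors, or to the kappaB site. TAP1, a peptide transporter gene that is no member, is shown because it lies head to head with PSMB9: the starts are 488 bases apart and the windows overlap by 13 bases. PSMB8 is at chr6:32844630-32844929 (minus strand), PSMB9 at chr6:32853942-32854241 (plus), TAP1 at chr6:32853655-32853954 (minus) and PSMB10 at chr16:67936801-67937100 (minus).
PSMB8: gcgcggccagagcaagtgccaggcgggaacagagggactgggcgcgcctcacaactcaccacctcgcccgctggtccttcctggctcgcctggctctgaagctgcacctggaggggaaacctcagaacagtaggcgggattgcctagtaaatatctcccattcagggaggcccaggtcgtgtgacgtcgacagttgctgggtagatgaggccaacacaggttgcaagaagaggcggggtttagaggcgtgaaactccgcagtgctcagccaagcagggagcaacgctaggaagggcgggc
PSMB9: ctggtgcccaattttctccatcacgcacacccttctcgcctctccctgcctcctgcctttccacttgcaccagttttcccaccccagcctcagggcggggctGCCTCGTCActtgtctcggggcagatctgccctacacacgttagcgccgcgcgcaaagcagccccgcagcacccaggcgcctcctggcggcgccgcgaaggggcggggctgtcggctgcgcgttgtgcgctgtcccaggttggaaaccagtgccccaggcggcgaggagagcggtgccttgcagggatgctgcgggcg
TAP1: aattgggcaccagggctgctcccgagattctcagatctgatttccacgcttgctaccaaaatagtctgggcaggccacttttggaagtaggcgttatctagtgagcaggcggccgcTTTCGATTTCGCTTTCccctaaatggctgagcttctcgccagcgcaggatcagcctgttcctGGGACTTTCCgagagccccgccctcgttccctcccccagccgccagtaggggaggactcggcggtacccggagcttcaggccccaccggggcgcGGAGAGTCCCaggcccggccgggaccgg
PSMB10: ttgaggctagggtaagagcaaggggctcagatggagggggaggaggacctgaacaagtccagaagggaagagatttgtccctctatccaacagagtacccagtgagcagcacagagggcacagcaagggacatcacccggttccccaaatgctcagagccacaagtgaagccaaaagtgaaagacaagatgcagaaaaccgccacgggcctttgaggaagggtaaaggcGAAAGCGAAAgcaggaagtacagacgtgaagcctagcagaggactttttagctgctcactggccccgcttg

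The PSMB8 window held none of these letter patterns and the PSMB9 window held 1 ARE match, from -148 to -140. The TAP1 window held 2 overlapping ISRE matches, between -134 and -119, and 2 kappaB matches. Both ISRE matches lie in the 488 bases between the starts of TAP1 and PSMB9. They therefore also precede the PSMB9 start, but farther from it than its window reaches. The lack of an ISRE match for PSMB9 thus depends on the length of the window. PSMB10, the inducible subunit that was lower in HARA-B4, was the one of the 3 with an ISRE match in its window, from -21 to -12. Such matches are a description of the letters and not of factor binding.

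PSMB8 and PSMB9 were higher in HARA-B4 and PSMB10 was lower. PSMB9 (beta1i), which takes the place of PSMB6, had a signal of 272 in HARA-B4 and 75.0 in HARA (log2 difference 1.86, 3.62-fold). PSMB8 (beta5i), which takes the place of PSMB5, had 475 in HARA-B4 and 173 in HARA (1.46, 2.75-fold). PSMB10 (beta2i), which takes the place of PSMB7, had 101.0 in HARA-B4 and 197 in HARA (-0.96), a level 1.95-fold lower in HARA-B4 and just short of 2-fold. The inducible subunits thus did not differ in one direction. Each was measured by 1 probe set, so no second probe set bears on these sizes, and that of PSMB8 is of the type ending in _s_at, which can match several transcripts.

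The standard catalytic subunits differed little, and all of them in the positive direction. PSMB5, the chymotrypsin-like subunit, had 1351 in HARA-B4 and 1234 in HARA (0.13). PSMB6, the caspase-like subunit, had 2280 in HARA-B4 and 1948 in HARA (0.23). PSMB7, the trypsin-like subunit, had 3896 in HARA-B4 and 3007 in HARA (0.37). The ratio of inducible to standard transcript therefore moved by a log2 value of 1.33 for PSMB8 over PSMB5 (2.51-fold up in HARA-B4), by 1.63 for PSMB9 over PSMB6 (3.10-fold up) and by -1.33 for PSMB10 over PSMB7 (2.52-fold down). Probe sets differ in brightness, so the ratio itself within a line is not read from these signals, only its change. The median log2 difference was 1.46 over the 3 inducible subunits and 0.14 over the other 38, against 0.01 over all 11489 genes above background on at least 1 array.

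**Figure D1:**
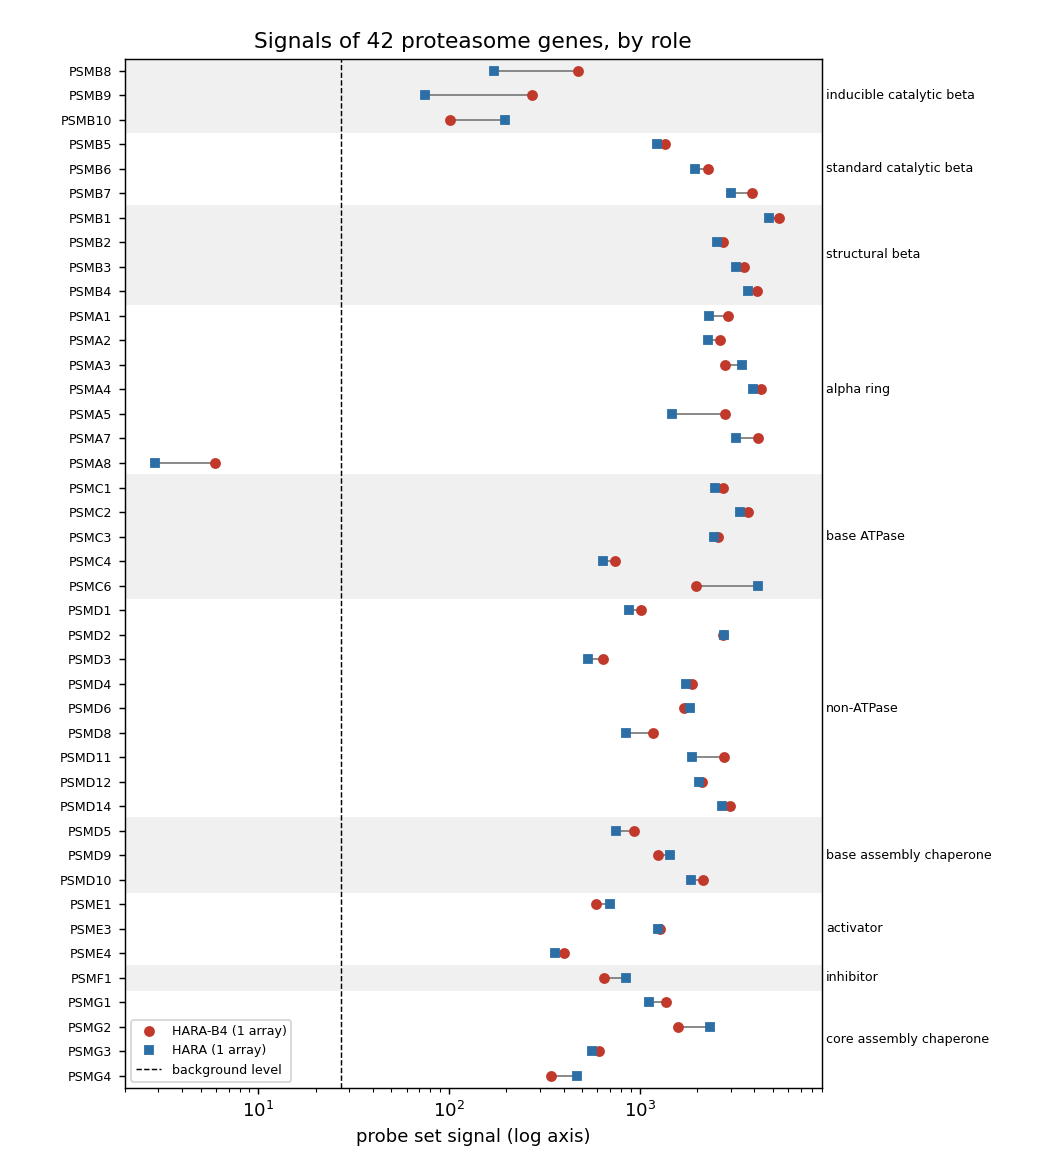
Signals of the 42 members on each array (horizontal log axis), grouped by role, with red circles for HARA-B4, blue squares for HARA, 1 array each, and a dashed line at the background signal of 27.1. PSMB8 and PSMB9 lie to the right in HARA-B4 and PSMB10 to the left, while most other pairs nearly touch.

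Across the family, 3 of 41 genes (7.32%) differed by at least 2-fold, against 7.82% of all 11489 genes, a share near the background and so no result about the members. Of these, 2 were higher in HARA-B4 (PSMB8 and PSMB9; 3.62% of all genes were) and 1 was lower (PSMC6; 4.20% of all genes were). Among the 5101 genes at or above the median level, the share at 2-fold in either direction was 5.10%. At 1.5-fold 5 of 41 (12.2%) differed, against 21.3% of all genes: PSMA5 joined the higher side, which then held 3 (10.2% of all genes), and PSMB10 the lower side, which held 2 (11.0% of all genes). The remaining 36 lay within 1.5-fold. Most differences were small and positive: 31 of 41 members (75.6%) stood above 0, against 51.5% of all genes, with a median of 0.14. Of the 5101 brighter genes, 2787 were positive, with a median of 0.04. The median of the members was 0.11 under quantile or lowess scaling.

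In the alpha ring, 5 of 6 measured subunits had positive differences, with a median of 0.27 that turned to -0.082 once the probe sets of the _x_at and _s_at types were left out. PSMA5 (alpha5) stood apart from the rest, at 2810 in HARA-B4 and 1478 in HARA (0.93), and its second probe set gave 0.84. PSMA7 (0.39), PSMA1 (0.32), PSMA2 (0.22) and PSMA4 (0.15) were closer to 0. PSMA3 was the negative one, at 2789 in HARA-B4 and 3459 in HARA (-0.31). PSMA8, the alpha subunit of the testis proteasome, had signals of 5.91 in HARA-B4 and 2.89 in HARA, both under background. The structural beta subunits PSMB1 (0.17), PSMB4 (0.16), PSMB3 (0.14) and PSMB2 (0.11) differed by nearly the same amount.

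In the regulatory particle PSMC6 stood out, while its partner ATPases were nearly level. PSMC6 (Rpt4), one of the ring of ATPases that unfold the substrate, had 1967 in HARA-B4 and 4152 in HARA (-1.08), a signal 2.11-fold lower in HARA-B4. The other ATPases PSMC4 (0.22), PSMC2 (0.14), PSMC1 (0.14) and PSMC3 (0.07) were positive, but further probe sets of PSMC2 gave -0.15 and -0.33. The ATPase median, PSMC6 included, was 0.14, and -0.15 with the _x_at and _s_at types left out. Of 9 non-ATPase subunits, 7 were positive, with a median of 0.14. The highest were PSMD11, a lid subunit (0.55, with a second probe set at -0.12), and PSMD8 (0.46), and the lowest were PSMD6 (-0.11) and PSMD2, a docking subunit of the base (-0.02). PSMD14, the lid deubiquitinase, differed by 0.14 and PSMD4, a ubiquitin receptor, by 0.12. PSMD3 (0.27), PSMD1 (0.21) and PSMD12 (0.05) lay among them.

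Activators, the inhibitor and the assembly factors went both ways. PSME1 (PA28-alpha), an interferon-inducible cap of the core, had 589 in HARA-B4 and 701 in HARA (-0.25), a sign opposite to that of PSMB8 and PSMB9. PSME3 (PA28-gamma), the nuclear cap, differed by 0.04 and PSME4 (PA200) by 0.15. PSMF1 (PI31), named as an inhibitor of the core, had 648 in HARA-B4 and 847 in HARA (-0.39), and its 4 probe sets ran from -0.70 to -0.25. PSMG1 and PSMG2 form a chaperone pair that starts the alpha ring, and they parted: PSMG1 had 1374 in HARA-B4 and 1118 in HARA (0.30), and PSMG2 had 1587 in HARA-B4 and 2347 in HARA (-0.56). The other pair parted as well, PSMG3 at 0.14 and PSMG4 at -0.46. The chaperones of the ATPase base PSMD5, PSMD10 and PSMD9 differed by 0.31, 0.21 and -0.19.

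In 17 members more than 1 probe set was above background in both lines. The differences of these probe sets shared one sign in 12 and were mixed in 5, namely PSMA2, PSMB2, PSMC2, PSMD11 and PSMD12. None of those 5 reached 1.5-fold on the probe set that stands for the gene. PSMC6 and the 3 inducible subunits had 1 probe set each.

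**Figure D2:**
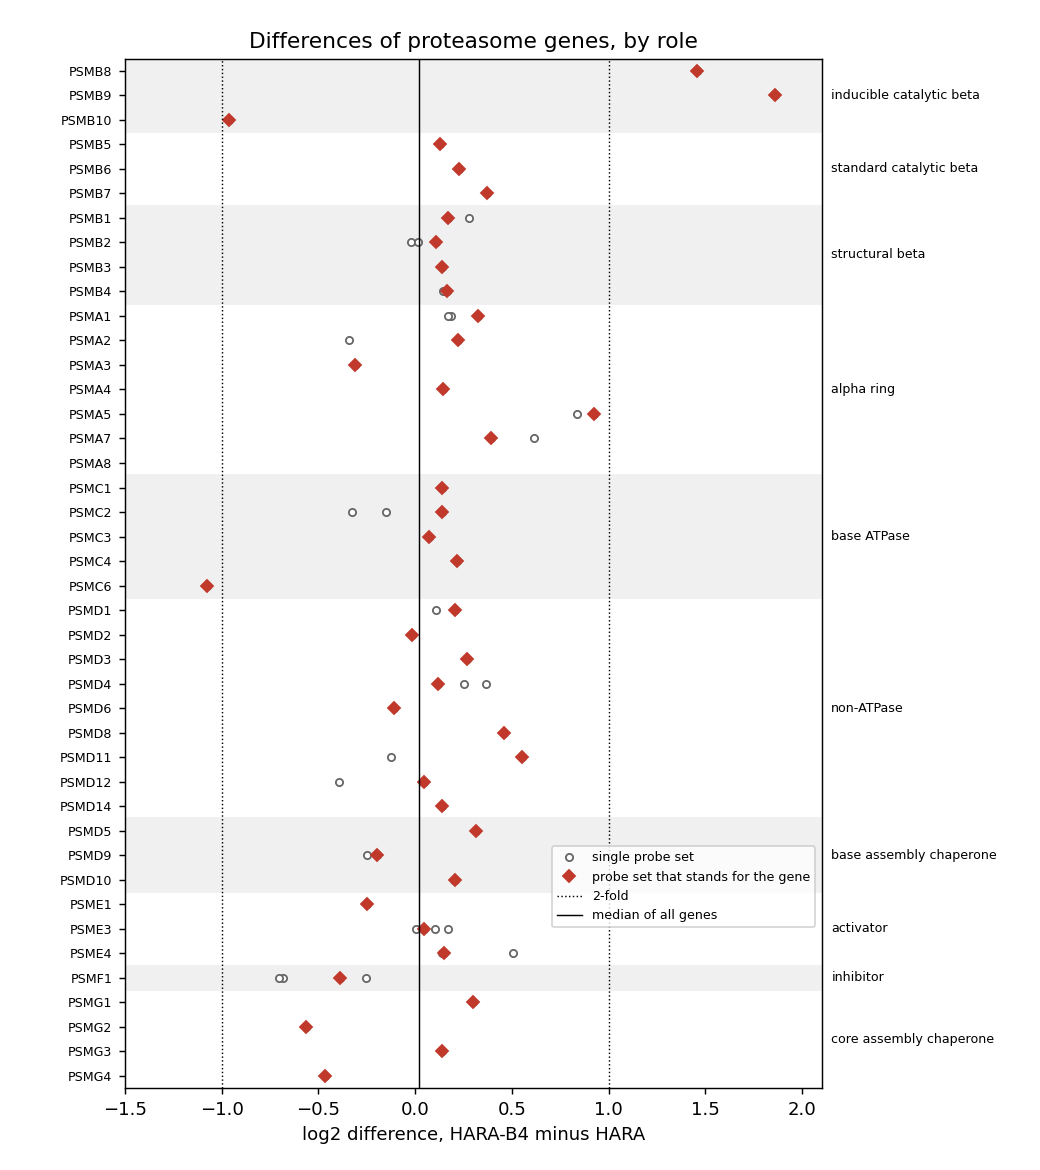
Log2 difference, HARA-B4 minus HARA, for each member by role. Red diamonds are the probe set that stands for the gene and open circles the gene's other probe sets above background on both arrays, with dotted lines at 2-fold and a solid line at the median of all genes. Most diamonds lie just right of the solid line, with PSMB8 and PSMB9 past 2-fold on the right and PSMC6 on the left.

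The subunits of one complex are encoded at scattered loci, so each member was set beside the 25 nearest genes on its chromosome, in RefSeq order, that were above background on both arrays and were not members. The differences of the 38 members other than the inducible subunits followed those of their neighbours, with a Pearson r of 0.80 and a Spearman rho of 0.62. These values run across genes, which are not independent replicates and in part share neighbours. The r was 0.70 without the 5 members on chromosome 14 and 0.50 without the 3 whose neighbours had a median of at least 0.5 in size (PSMC6, PSMG2 and PSMA5). For all 10178 genes above background on both arrays, with members kept among the neighbours, r was 0.39. That set reaches down to background, whereas most members lie far above it. No r was computed for brighter genes alone, so these values of r are not like for like. The SD of the differences over the 38 members was 0.34, and 0.22 after the neighbour median was subtracted. For all genes it was 0.55 and 0.51.

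PSMC6, PSMA5 and PSMG2, the 3 of these 38 members farthest from 0, sat among genes that differed alike. PSMD11 (0.55) and PSMG4 (-0.46), the next farthest, did not, with neighbour medians of -0.02 and 0.27. Around PSMC6 on chromosome 14, 24 of 25 neighbours were lower in HARA-B4, with a median of -1.23 against -1.08 for PSMC6 itself. Around PSMA5 on chromosome 1, 23 of 25 were higher, with a median of 0.92 against 0.93 for PSMA5. PSMG2 on chromosome 18 had a neighbour median of -0.50 with 25 of 25 lower, PSMA3 on chromosome 14 had -0.42, and PSMF1 on chromosome 20 had -0.41. On the higher side PSMB7 and PSMD5 on chromosome 9 had neighbour medians of 0.46 and 0.44, and PSMA7 on chromosome 20 had 0.43. All 5 of the 38 members with a neighbour median at or under -0.4 were lower in HARA-B4, and all 4 with one at or over 0.4 were higher. Around each of them at least 21 of 25 neighbours went the same way. Chromosome 14 also holds PSMB5, PSMC1 and PSME1, whose neighbour medians were 0.09, -0.14 and 0.10. Of the 38, 33 lay within 0.3 of their neighbour median, and the exceptions were PSMG4 (-0.73 from its neighbours), PSMD11 (0.57), PSME1 (-0.35), PSMD6 (0.35) and PSMD14 (0.32). The shares of all genes that meet these limits were not computed, so these counts are no result about the members.

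The inducible subunits lay away from the median of their 25 neighbours. PSMB8 and PSMB9, on chromosome 6, had a neighbour median of -0.08, with 10 of 25 neighbours positive, and stood 1.54 and 1.94 above it. The genes directly beside them were higher too: TAP1 by 0.97, TAP2 by 0.33 and PSMB8-AS1, an antisense transcript of PSMB8 that is no member, by at least 1.04. PSMB10, on chromosome 16, had a neighbour median of -0.19, with 17 of 25 neighbours negative. It stood 0.77 below that median, about as far as PSMG4 from its own (-0.73).

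**Figure D3:**
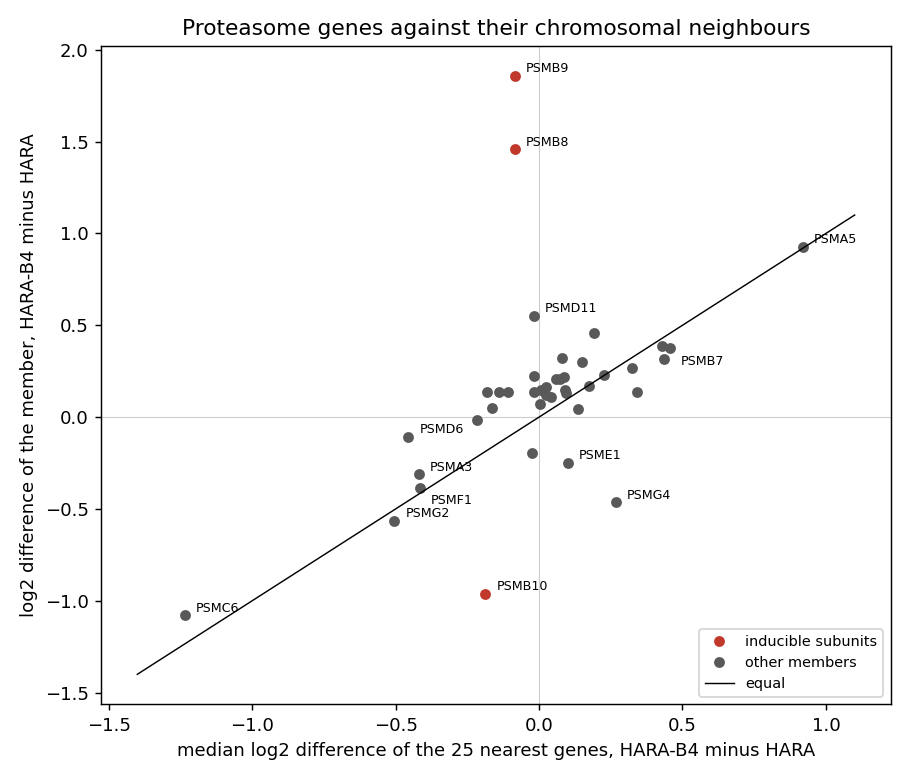
Log2 difference of each of 41 members (vertical axis) against the median log2 difference of its 25 nearest genes (horizontal axis), both HARA-B4 minus HARA, with a line where they are equal. The grey other members spread along the line from PSMC6 to PSMA5. Of the red inducible subunits, PSMB8 and PSMB9 lie far above the line and PSMB10 below it.

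Of 9 genes that act beside the inducible subunits in MHC class I presentation and were above background, 1 reached 2-fold on the higher side and 0 on the lower, with a median of 0.00. A list of this size is too small to set such counts apart from the 7.82% of all genes at 2-fold in either direction. The same holds for the interferon signalling list that follows. NLRC5, the transactivator of class I genes, had 116 in HARA-B4 and 25.7, under background, in HARA, and was at least 4.28-fold higher in HARA-B4. TAP1, the neighbour of PSMB9, had 295 in HARA-B4 and 151 in HARA (0.97), and TAP2 had 298 in HARA-B4 and 237 in HARA (0.33). B2M, the class I light chain, differed by 0.33 and TAPBP, the loading factor tapasin, by -0.14. These 4 were named with their values known, TAP1 and TAP2 for their place beside PSMB8 and PSMB9.

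Of 10 interferon signalling genes above background, 0 differed by at least 2-fold, 4 had positive and 6 negative differences, and the median was -0.15, against 0.01 over all genes. The brightest were STAT3 and IFNGR2. STAT3 had 601 in HARA-B4 and 411 in HARA (0.55), and the receptor chain IFNGR2 had 481 in HARA-B4 and 518 in HARA (-0.11). The lowest differences of the list, named after their values were seen, were those of the kinase TYK2 (-0.87) and of IRF2 (-0.59). IRF1, known to act on the promoter shared by PSMB9 and TAP1 and named here with its value known, had 41.1 in HARA-B4 and 35.9 in HARA (0.19), close to background in both.

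Leukocyte markers were near background in both lines: 3 of 10 were above it on at least 1 array (CD79A, ITGAM and LCP1), and the summed signal of the 10 was 162 in HARA-B4 and 174 in HARA. The pan-leukocyte gene PTPRC had 5.99 in HARA-B4 and 8.47 in HARA, and the markers CD3E, CD14, LYZ and TYROBP were under background on both arrays. Of 6 dendritic cell and MHC class II genes, 2 were above background, with summed signals of 100.4 in HARA-B4 and 163 in HARA. Endothelial markers summed to 90.2 in HARA-B4 and 101 in HARA, with 2 of 6 above background. Of 8 fibroblast markers 3 were above background. Of these, 1 was at least 2-fold higher and 1 at least 2-fold lower, against 7.82% of all genes in either direction. With 3 genes these counts are not read as a result. Their summed signal was 364 in HARA-B4 and 290 in HARA, and they did not go one way. FAP, at 155 in HARA-B4 and 1.76 in HARA, was higher like PSMB8 and PSMB9. THY1, at 23.8 in HARA-B4 and 63.8 in HARA, was at least 2.35-fold lower, and COL1A1, at 139.9 in HARA-B4 and 185 in HARA, differed by -0.40. COL1A2, COL3A1, DCN, LUM and PDGFRB were under background on both arrays. The part of fibroblast-like cells in the values of PSMB8 and PSMB9 was not tested.

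Genes that build, recycle or supply the proteasome outside the PSM symbols held 0 at 2-fold in lists of 15, 7 and 6, too few genes to set this apart from the 7.82% of all genes. Of 15 partners, 9 were positive and 6 negative, with a median of 0.11. The core maturation factor POMP had 3771 in HARA-B4 and 3465 in HARA (0.12), and the small lid subunit SEM1 had 2614 in HARA-B4 and 2784 in HARA (-0.09). ECPAS, a proteasome adaptor and scaffold named after its value was seen, was the highest (0.83). Of 7 genes that control proteasome transcription, 4 were positive and the median was 0.11. NFE2L2 had 2446 in HARA-B4 and 2267 in HARA (0.11), and NFE2L1, which raises proteasome genes when the protease is inhibited, had 901 in HARA-B4 and 676 in HARA (0.41). The lowest in that list, named after their values were seen, were SEL1L, which acts in degradation from the endoplasmic reticulum (-0.71), and NFE2L3, with a bound of 1.62-fold lower, since its HARA-B4 signal was under background. Of 6 genes of ubiquitin supply and the VCP unfoldase, the median was 0.09, with the polyubiquitin gene UBB at -0.10 and the VCP cofactor UFD1 at 0.21.

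**Figure D4:**
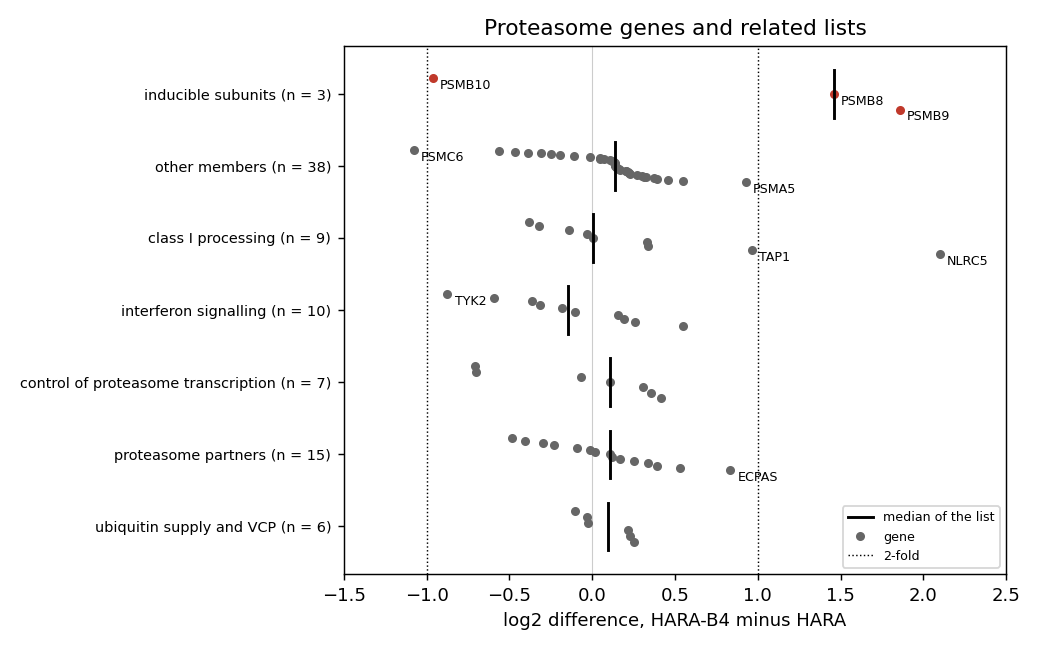
Log2 difference, HARA-B4 minus HARA, of single genes (points) in the inducible subunits, the other members and 5 lists of related genes, with a black bar at each median and dotted lines at 2-fold. Points under background on 1 array are placed at their bound. NLRC5 is the one gene of these 5 lists past 2-fold, and the medians of the lists lie between -0.15 and 0.11.

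Promoter windows were found for 36 members. The ARE core was present in 12 of them, PSMB9 and 11 of the 33 members outside the inducible subunits (33.3%), against 13.6% of all 27305 promoters. The ISRE core was present in 5, against 3.65% of all promoters: PSMB10 (-0.96), PSMG4 (-0.46), PSME1 (-0.25), PSMA4 (0.15) and PSMB4 (0.16). None of the 5 was at least 1.5-fold higher in HARA-B4, against 10.2% of all genes, and 5 genes are too few to set this apart from that share. The GAS pattern was present in 5 members, PSMA2, PSMA8, PSMC4, PSMD3 and PSME3 (7.88% of all promoters), and the kappaB pattern in 1, PSMA8 (10.8%). These counts were not tested, and a window without a match says only that these letters are not in it.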

How the data were processed

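The deposited intensity values are linear probe set signals, made with Affymetrix Expression Console per the submitters' processing notes. Its version, summary algorithm, scaling target and the probes' genome build are not given in the labels or headers. From the deposited intensities, log2 values were taken with no scaling added, and HARA was subtracted from HARA-B4. Of the probe sets, 41097 had 1 gene symbol, 1801 several and 11777 none. Those with 1 symbol were named, 41043 of them through Entrez IDs in the RefSeq gene table (GRCh38.p14), which also gave gene order and promoters. A gene under background on 1 array took the background level there, so its fold is a bound. Signals are given for the catalytic subunits, PSME1 and members differing by at least 1.5-fold, and further members were named by role or with their values known. Members, lists, rules and alternatives were chosen with earlier results of these data known. Scripts were tested on simulated data and used Python 3.11.15, pandas 2.3.3, scipy 1.17.1 and statsmodels 0.14.6. The alternatives concern scaling (median, quantile, lowess), background level, choice of probe set, log2(signal + 16), folds of 1.5 and 3, and 15 or 51 neighbours. The 2 alternatives that left members out of the neighbour correlation were chosen after seeing the data.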

Additional observations from a re-analysis of the deposited data

How the results depend on the processing

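Over 16 alternatives 258 values were recomputed, and 248 stayed within the within-gene probe set SD of 0.30 of the reported value (counts within 1.5 times). Many of these values could not move, so the share is no measure of precision. Shifting the background by 1 changed none of them. A mean or median over probe sets leaves a gene with 1 probe set unchanged. No called member changed sign. PSMB9 ranged from 1.66 to 1.89, PSMB8 from 1.38 to 1.48, PSMB10 from -0.96 to -0.86 and PSMC6 from -1.14 to -1.07. Each of these genes has 1 probe set. The ranges and unchanged signs therefore come from rescaling the same signals and hold no second measurement. With the _x_at and _s_at probe sets left out, PSMB8 has no value, which left 1 higher gene, an inducible median of 0.45 and a gap of 0.31 to the other members, and moved the alpha ring median to -0.082 and that of the PSMG chaperones to 0.14. The median of all probe sets also gave 0.14 for the PSMG chaperones, reported at -0.16. Without the _x_at and _s_at types, the ATPase median turned from 0.14 to -0.15 and that of the activators from 0.04 to -0.05, moves within 0.30. Under quantile and lowess scaling the activator median was -0.04 and -0.01. A 1.5-fold limit gave 2 lower genes, and a 3-fold limit gave 1 higher and 0 lower, by construction. Rescaling by median, quantile or lowess moved the median of all genes by at most 0.01. The neighbour correlation ran from 0.50 to 0.81, lowest without PSMC6, PSMG2 and PSMA5. No paired analysis was possible because each line has 1 array, and no replicate could be left out.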

Other observations

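The chromosome 6 genes around PSMB8 and PSMB9 did not all differ. BRD2, a chromatin reader in that stretch, had 458 in HARA-B4 and 457 in HARA. HLA-DOA was lower in HARA-B4, at 33.1 against 48.0 in HARA (-0.53), both near background. HLA-DRA, HLA-DRB1, HLA-DMA, HLA-DMB and HLA-DPA1, which encode MHC class II chains and their loading factors, were under background on both arrays, while HLA-DQB1 had 37.4 in HARA-B4 and 16.3, under background, in HARA. PSMB8-AS1, an antisense transcript of PSMB8 that the member rule leaves out, had 55.9 in HARA-B4 and 11.2, under background, in HARA, a log2 difference of at least 1.04. These genes were named after their values were seen.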
